A study of Homo sapiens with 6 samples.

Results

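SFN, the gene of 14-3-3 sigma, and the other 6 genes of the human 14-3-3 family were followed in cells labelled HCT116, a colorectal carcinoma line, 48 h after a negative control siRNA (NC, 3 libraries) or an siRNA against CPT2 (3 libraries). Members were all rows of the count table whose gene name was SFN, YWHAB, YWHAE, YWHAG, YWHAH, YWHAQ or YWHAZ, and all 7 were found among 24154 genes. SFN was picked from the values themselves, because every CPT2 siRNA library lay above every NC library, so its difference is described here without a test. The other 6 came with it as the rest of the family. CPT2 encodes carnitine palmitoyltransferase 2, an enzyme of mitochondrial fatty acid oxidation. All libraries came from poly(A) RNA of 1 cell line, and the labels give each group replicate numbers without saying whether the replicates were separate cultures. The p-values therefore measure only the spread between these libraries, which may be technical.

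The 14-3-3 proteins are small acidic adaptors that work as dimers and bind other proteins at phosphorylated serine or threonine motifs. Binding can hold a client in the cytoplasm, mask an active site or protect a phosphate, and in this way the family acts on cell cycle phosphatases, pro-apoptotic proteins, RAF kinases, FOXO factors and YAP1. Sigma differs from its relatives in being an epithelial protein: after DNA damage in colorectal cells it is known to keep the CDK1-cyclin B1 kinase out of the nucleus, and its gene is silenced by methylation in some carcinomas. The other isoforms, beta (YWHAB), epsilon (YWHAE), gamma (YWHAG), eta (YWHAH), theta (YWHAQ) and zeta (YWHAZ), are made in most cell types.

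The 7 genes code for closely related proteins from unlike nucleotide sequences. In translations of the GENCODE 29 coding sequences (245 to 255 residues), SFN shared 60.5% (YWHAE) to 71.0% (YWHAZ) of aligned residues with the other members, and the 15 pairs without SFN shared 63.9% to 87.7%. The G or C share at the last base of the codons was 86.7% in SFN and 81.8% in YWHAG, against 66.7% in YWHAH, 61.2% in YWHAQ, 49.6% in YWHAB, 45.9% in YWHAE and 42.5% in YWHAZ. The stretch of 20 codons most alike across the family shows this for the members on which the results turn: 18 of its 20 residues are the same in all 7 proteins. Reference bases of GRCh38 are given 5′ to 3′ on the coding strand, each within 1 coding exon, with G or C at the last base of a codon in capitals.
SFN (chr1:26863831-26863890, plus strand): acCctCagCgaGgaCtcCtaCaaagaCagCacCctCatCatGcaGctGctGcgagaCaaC
YWHAG (chr7:76329634-76329693, minus strand): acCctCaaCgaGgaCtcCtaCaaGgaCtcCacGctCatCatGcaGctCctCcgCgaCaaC
YWHAQ (chr2:9587420-9587479, minus strand): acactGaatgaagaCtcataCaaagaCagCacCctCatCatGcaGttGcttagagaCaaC
YWHAE (chr17:1354245-1354304, minus strand): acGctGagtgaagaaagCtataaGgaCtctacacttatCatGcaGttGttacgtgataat
The last base was G or C in 18 of 20 codons in SFN, 20 in YWHAG, 13 in YWHAQ and 9 in YWHAE. Out of 60 bases, YWHAG matched SFN at 52, YWHAQ at 51 and YWHAE at 40.

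Over the whole transcript the order was different. SFN (ENSG00000175793, chr1:26863138-26864457, plus strand, GRCh38) is a gene of 1 exon whose 1320-base transcript has 62.8% GC, inside the highest GC decile of tested genes (62.0% to 74.7%). The longest transcript of YWHAG (ENSG00000170027, chr7:76326794-76359031, minus strand, 3750 bases) has 46.8% GC, so that its GC-rich coding part sits in a transcript below the middle of the range. The other longest transcripts have 50.2% GC in YWHAH (chr22:31944461-31957603, plus strand), 45.1% in YWHAE (chr17:1344272-1400378, minus strand), 43.5% in YWHAQ (chr2:9583972-9631014, minus strand), 43.2% in YWHAB (chr20:44885676-44908532, plus strand) and 40.7% in YWHAZ. GENCODE 29 names 8 pseudogenes of YWHAZ, 6 of YWHAE, 4 of YWHAQ, 2 of YWHAB and 0 of the other 3 members, and the sources used here do not say how reads with several matches were counted. YWHAH shares exons with Z82190.2, which lies on the same strand and had 0 counts, and with C22orf24 on the opposite strand, whose reads are told from those of YWHAH only where strand is counted.

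SFN also stands apart from its relatives at the start of the gene. The window from 250 bases before to 50 after the RefSeq start holds 7 CG dinucleotides in SFN and 29 to 44 in the 5 other members that matched the table (YWHAB, YWHAE, YWHAG, YWHAH and YWHAQ). Among 27305 promoters of that table the median was 14, and 39.9% held 7 or fewer. The upstream part of SFN is printed beside that of YWHAG, which differed most in the opposite direction in these libraries, with every CG in capitals (RefSeq, GRCh38.p14, ending before the first annotated GENCODE base).
SFN (chr1:26862899-26863137, plus strand): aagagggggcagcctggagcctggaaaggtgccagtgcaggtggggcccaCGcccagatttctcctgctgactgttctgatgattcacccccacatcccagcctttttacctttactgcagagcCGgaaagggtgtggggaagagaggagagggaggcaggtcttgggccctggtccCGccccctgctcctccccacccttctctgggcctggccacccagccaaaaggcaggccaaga
YWHAG (chr7:76359032-76359241, minus strand): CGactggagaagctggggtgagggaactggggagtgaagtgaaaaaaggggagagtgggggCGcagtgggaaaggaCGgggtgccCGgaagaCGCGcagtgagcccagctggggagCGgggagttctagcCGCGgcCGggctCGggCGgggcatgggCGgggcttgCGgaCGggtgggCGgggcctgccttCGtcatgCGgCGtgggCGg
These stretches hold 3 CG dinucleotides in 239 bases of SFN and 20 in 210 bases of YWHAG. The motif GGGCGG, counted on both strands and often a part of CG-rich promoters, occurred 2 times in the SFN window and 4 times in that of YWHAG. It occurred at least once in 44.6% of all promoters.

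Facts of the libraries that touch these results come first. Libraries held 28353790 to 29449380 counts. Scores on the first principal component (53.2% of the variance) ran from -44.6 to 16.03 in 5 libraries and stood at 76.6 in CPT2 siRNA replicate 1. Mitochondrial genes took 10.002% to 10.8% of counts in NC libraries and 17.0%, 15.6% and 8.99% in CPT2 siRNA replicates 1 to 3, and their part in the results was not tested. CPT2 itself had 23.6, 28.5 and 29.1 CPM (counts put on a common library size, which edgeR scaled by the TMM method) in NC replicates 1 to 3 and 19.4, 21.3 and 18.96 CPM in CPT2 siRNA replicates 1 to 3. Its log2 difference was -0.44 (SE 0.17) and did not pass over all genes (edgeR quasi-likelihood test with Benjamini-Hochberg adjustment, adjusted p = 0.34). The labelled cell type was checked against 10 markers of colorectal epithelium, and most were absent or nearly so. CDX1 and CDX2, intestinal transcription factors, had 0 counts in all libraries, which allows up to 0.106 CPM on unscaled library sizes, and VIL1 and CEACAM5 reached at most 3 and 5 counts in a library. EPCAM was at 2.68 to 4.31 CPM, CDH1, the gene of E-cadherin, at 1.03 to 2.90 CPM, KRT19 at 0.194 to 1.34 CPM and LGALS4 at 0.292 to 1.03 CPM. The simple epithelial keratins KRT8 and KRT18 were abundant, at 938 to 1432 CPM and 609 to 1219.8 CPM. Of 12 markers of other cell types, CDH5, the endothelial cadherin, was at 52.1 to 87.8 CPM, COL1A1 at 57.0 to 127.8 CPM and CD68 at 20.3 to 30.8 CPM, while PTPRC, CD3E, COL3A1, DCN and HBB did not pass the filter on low counts and COL1A2, PECAM1 and VWF reached at most 1.18 CPM. The markers therefore go against the label in part, and the cells are called by their label here.

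SFN was higher in each of the 3 CPT2 siRNA libraries than in any NC library. Its level was 128.7, 102.7 and 132.1 CPM in NC replicates 1 to 3, and 271.8, 190.2 and 206.4 CPM in CPT2 siRNA replicates 1 to 3. The group means were 121.2 ± 16.1 and 222.8 ± 43.2 CPM (SD, n = 3 each), a fold of 1.84 and a log2 difference of 0.88. The groups did not overlap, with the lowest CPT2 siRNA library at 190.2 CPM and the highest NC library at 132.1 CPM. Raw counts were 3170 to 4142 in NC and 5334 to 6882 after CPT2 siRNA, and the authors' FPKM were 77.9 to 99.95 and 136.0 to 169.7, so the groups were also apart on both of these scales, as were 5.05% of genes by count and 7.19% by FPKM in this direction. Of all 15302 tested genes, 12.2% had every CPT2 siRNA library above every NC library in CPM, and in the highest GC decile, to which SFN belongs, the share was 30.5%. This pattern is how SFN was picked, and nothing is read from it. In bulk RNA, more SFN transcript per cell and more cells that make SFN cannot be told apart.

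**Figure D1:**
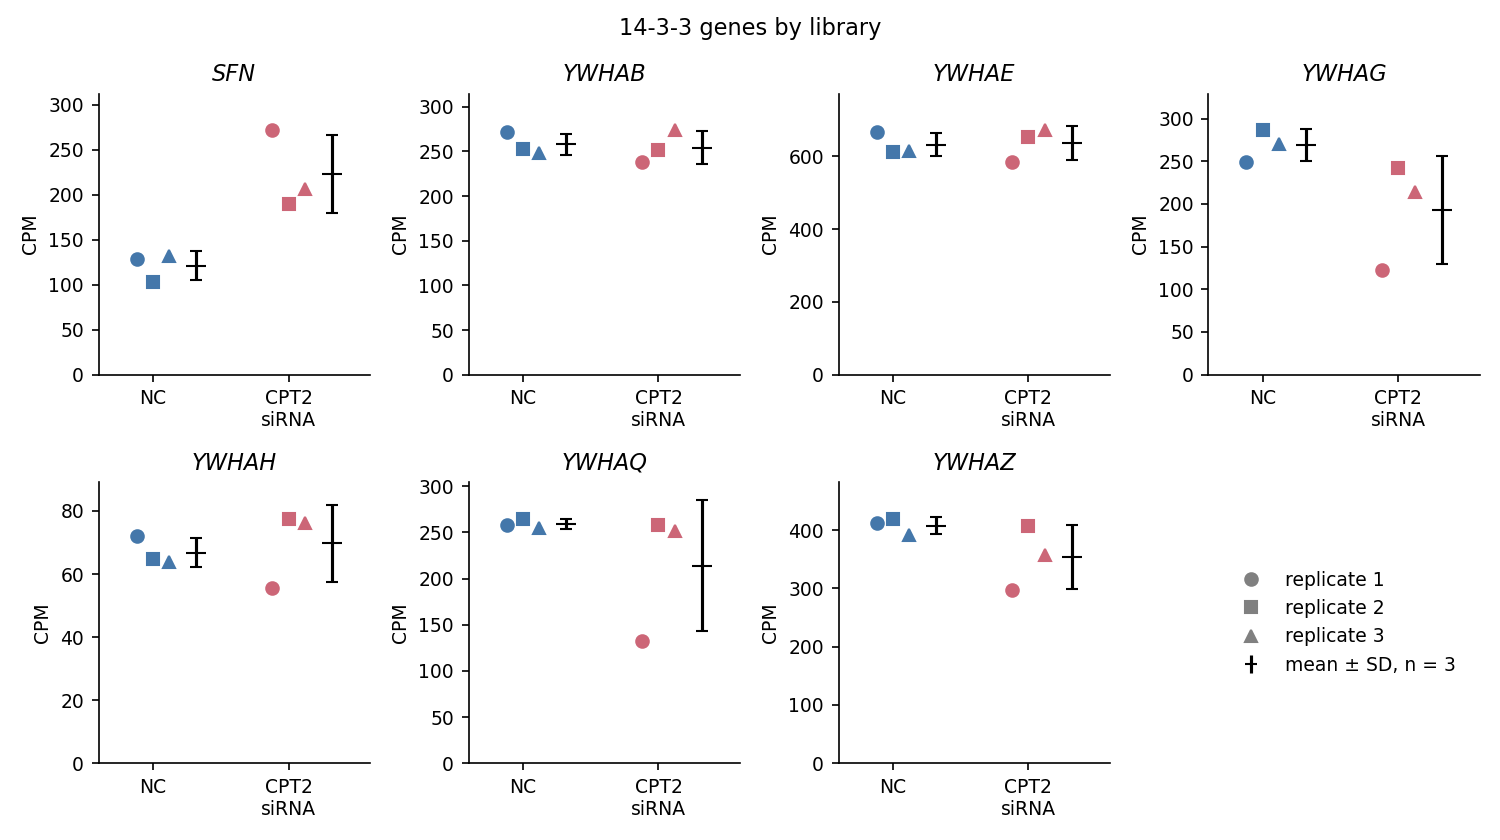
Level of each 14-3-3 gene by library in TMM-scaled CPM (vertical axes from 0, each panel with its own range), for 3 NC (blue) and 3 CPT2 siRNA (red) libraries, with symbols for replicate numbers and black bars for mean ± SD. SFN is at 102.7 to 132.1 CPM in NC and at 190.2 to 271.8 CPM after CPT2 siRNA, and CPT2 siRNA replicate 1 (circle) is the lowest library of its group for every other member.

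YWHAG, YWHAQ and YWHAZ had lower mean levels after CPT2 siRNA, and none of the 3 differences passed the test. YWHAG, the gamma isoform, had 249.6, 286.4 and 270.5 CPM in NC replicates 1 to 3 and 122.4, 242.6 and 214.02 CPM in CPT2 siRNA replicates 1 to 3. Every CPT2 siRNA library lay below every NC library, as in 12.2% of all tested genes. The means were 268.8 ± 18.5 and 193.0 ± 62.8 CPM (SD, n = 3 each). The log2 difference was -0.48 (SE 0.23, edgeR adjusted p = 0.34), and it was -0.25 without CPT2 siRNA replicate 1 and -0.68 without CPT2 siRNA replicate 2. YWHAG was thus lower in 3 of 3 libraries, with a spread after CPT2 siRNA set mostly by 1 library.

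YWHAQ, the theta isoform, was low in a single library. It had 257.8, 265.0 and 255.3 CPM in NC replicates 1 to 3, then 132.3 CPM in CPT2 siRNA replicate 1 and 257.7 and 251.8 CPM in CPT2 siRNA replicates 2 and 3. CPT2 siRNA replicate 2 lay within the NC range and replicate 3 just under it, so the groups overlapped on this scale. In FPKM they were apart, with 112.7 to 120.2 in NC and 49.3 to 110.2 after CPT2 siRNA, as were 17.1% of all tested genes in this direction. In raw counts YWHAG, YWHAQ and YWHAZ were all apart, lower after CPT2 siRNA, as were 22.9% of genes. The log2 difference was -0.28 (SE 0.23, edgeR adjusted p = 0.50), and it was -0.04 without CPT2 siRNA replicate 1 and -0.44 without CPT2 siRNA replicate 2. YWHAZ, the zeta isoform, had 413.0, 419.9 and 391.2 CPM in NC replicates 1 to 3 and 297.5, 407.3 and 358.2 CPM in CPT2 siRNA replicates 1 to 3. CPT2 siRNA replicate 2 fell within the NC range and the other 2 lay below it. Its log2 difference was -0.20 (SE 0.15, edgeR adjusted p = 0.44), and it was -0.10 without CPT2 siRNA replicate 1 and -0.32 without CPT2 siRNA replicate 2.

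YWHAE, YWHAB and YWHAH differed little between the groups. YWHAE, the epsilon isoform, had 667.9, 612.1 and 614.4 CPM in NC replicates 1 to 3 and 583.4, 652.8 and 672.1 CPM in CPT2 siRNA replicates 1 to 3. YWHAB, the beta isoform that binds RAF kinases, had 271.3, 253.1 and 248.7 CPM in NC and 237.7, 251.2 and 273.7 CPM after CPT2 siRNA. YWHAH, the eta isoform, had 71.95, 64.7 and 63.7 CPM in NC and 55.7, 77.6 and 76.1 CPM after CPT2 siRNA. In all 3 genes the groups overlapped, and CPT2 siRNA replicate 1 was the lowest of the 6 libraries. Log2 differences were 0.01 (SE 0.13) for YWHAE, -0.02 (SE 0.13) for YWHAB and 0.06 (SE 0.17) for YWHAH, with edgeR adjusted p of 0.97, 0.93 and 0.84, and their signs turned in 8, 5 and 7 of 17 alternatives. None of the 6 relatives of SFN was therefore called by edgeR, against 0.0131% of all tested genes. In the authors' deposited table, which comes from DESeq2, all 6 were called normal as well, YWHAG with the smallest unadjusted p (0.0579, log2 fold change -0.48).

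Per unit of length, YWHAE was the leading 14-3-3 transcript and SFN moved from the middle of the family to the second place in mean FPKM (fragments scaled to transcript length and library size, as the authors deposited them). In NC, mean FPKM were 288.1 ± 9.88 for YWHAE, 119.5 ± 23.2 for YWHAZ, 116.1 ± 3.76 for YWHAQ, 90.7 ± 11.4 for SFN, 83.98 ± 2.94 for YWHAB, 70.9 ± 6.18 for YWHAG and 36.2 ± 1.73 for YWHAH (SD, n = 3). The ranges of YWHAZ and YWHAQ overlapped there, as did those of SFN and YWHAB, and the other neighbours in this order were apart. After CPT2 siRNA they were 279.2 ± 22.9 for YWHAE, 151.5 ± 17.0 for SFN, 107.2 ± 24.04 for YWHAZ, 89.4 ± 34.7 for YWHAQ, 83.4 ± 22.2 for YWHAB, 47.4 ± 18.1 for YWHAG and 34.99 ± 8.51 for YWHAH. From YWHAZ down to YWHAH the mean ± SD ranges of neighbours overlapped, whereas those of YWHAE and SFN overlapped with no other member. SFN took rank 564 to 688 of 24154 genes by FPKM in NC libraries and rank 318 to 391 after CPT2 siRNA. FPKM and counts did not keep a fixed ratio in every member. YWHAZ had 128.6 counts per FPKM in NC replicate 3 and 88.9 to 101.9 in the other libraries. YWHAB had 74.2 in CPT2 siRNA replicate 3 and 89.5 to 96.7 elsewhere. YWHAE had 58.4 in CPT2 siRNA replicate 1 and 63.4 to 68.0 elsewhere, and SFN had 39.2 to 41.4 throughout.

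SFN made up a larger part of the family's transcripts in every CPT2 siRNA library. Of the summed 14-3-3 FPKM, SFN held 11.5%, 9.52% and 12.8% in NC replicates 1 to 3, whereas CPT2 siRNA replicates 1 to 3 had 25.4%, 16.1% and 17.2%. The mean share was 11.3% ± 1.65 and 19.6% ± 5.05 (SD, n = 3 each), a difference of 8.27 percentage points, and 5.37 points without CPT2 siRNA replicate 1. The sum of the 7 genes was 816.6, 818.3 and 781.6 FPKM in NC replicates 1 to 3, and CPT2 siRNA replicates 1 to 3 had 669.1, 843.5 and 866.7 FPKM. CPT2 siRNA replicate 1 thus lay below the NC range and the other 2 lay above it, with means of 805.5 ± 20.7 and 793.1 ± 108.0 FPKM (SD, n = 3 each). Without SFN the sum was 722.5, 740.4 and 681.7 FPKM in NC replicates 1 to 3 and 499.5, 707.5 and 717.9 FPKM in CPT2 siRNA replicates 1 to 3. Only CPT2 siRNA replicate 1 lay outside the NC range of that sum. The share of YWHAG was 7.87% to 9.34% in NC and 4.02% to 7.24% after CPT2 siRNA, and that of YWHAQ 13.8% to 14.8% and 7.37% to 13.1%. That of YWHAE was 34.4% to 36.7% and 34.1% to 37.8%. By counts per kilobase of the longest transcript YWHAE held 38.8% to 40.5% in NC and 37.8% to 38.7% after CPT2 siRNA. These shares use the values that chose SFN and are given without a test.

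**Figure D2:**
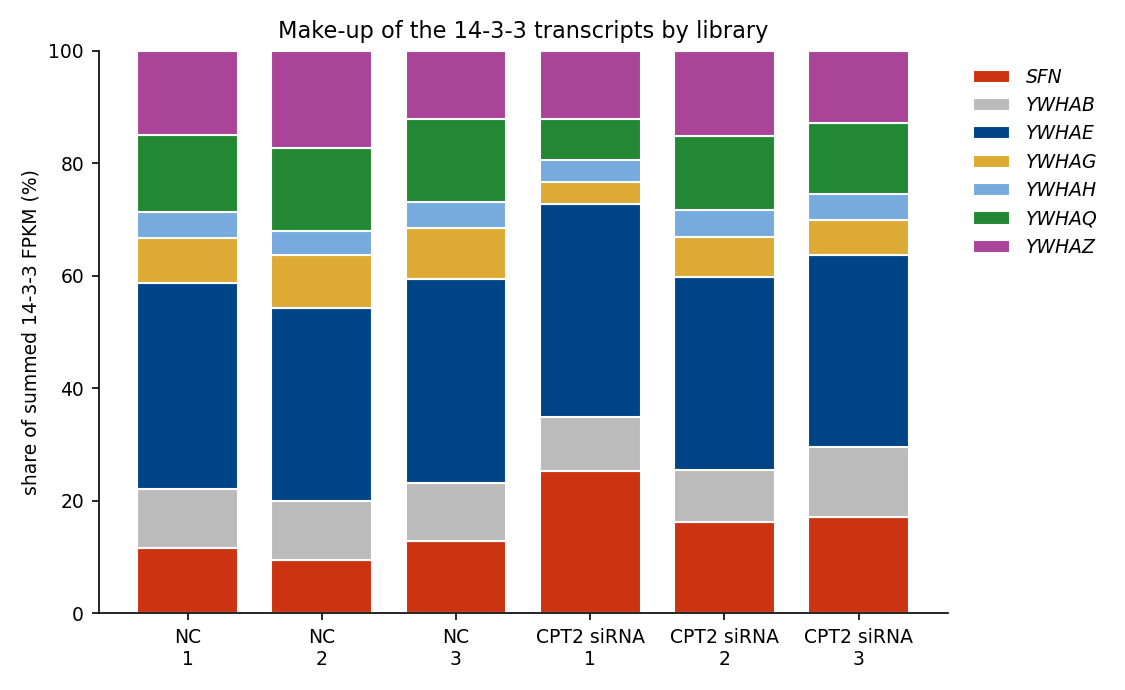
Share of each gene in the summed FPKM of the 7 14-3-3 genes (vertical axis, percent) in each of the 6 libraries, as stacked bars that add up to 100%. The lowest segment, SFN, covers 9.52% to 12.8% in NC and 16.1% to 25.4% after CPT2 siRNA, and YWHAE is the largest segment in every library.

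Differences between the groups followed transcript GC content across all genes, and SFN is the GC-rich member of the family. Genes in the highest GC decile had a median log2 difference of 0.48 over 1321 genes, and those in the lowest decile had -0.41, against 0.01 over all tested genes. In the highest decile the NC libraries had medians of 0.05, -0.17 and 0.12 against the NC mean, and CPT2 siRNA replicates 1 to 3 had 0.81, 0.09 and 0.44. SFN, with 0.88, lay above the median of its decile, and YWHAG, with -0.48, lay below the median of its own, which was -0.09. YWHAQ (-0.28) lay below the median of its decile (-0.19) and YWHAZ (-0.20) above its own (-0.34).

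**Figure D3:**
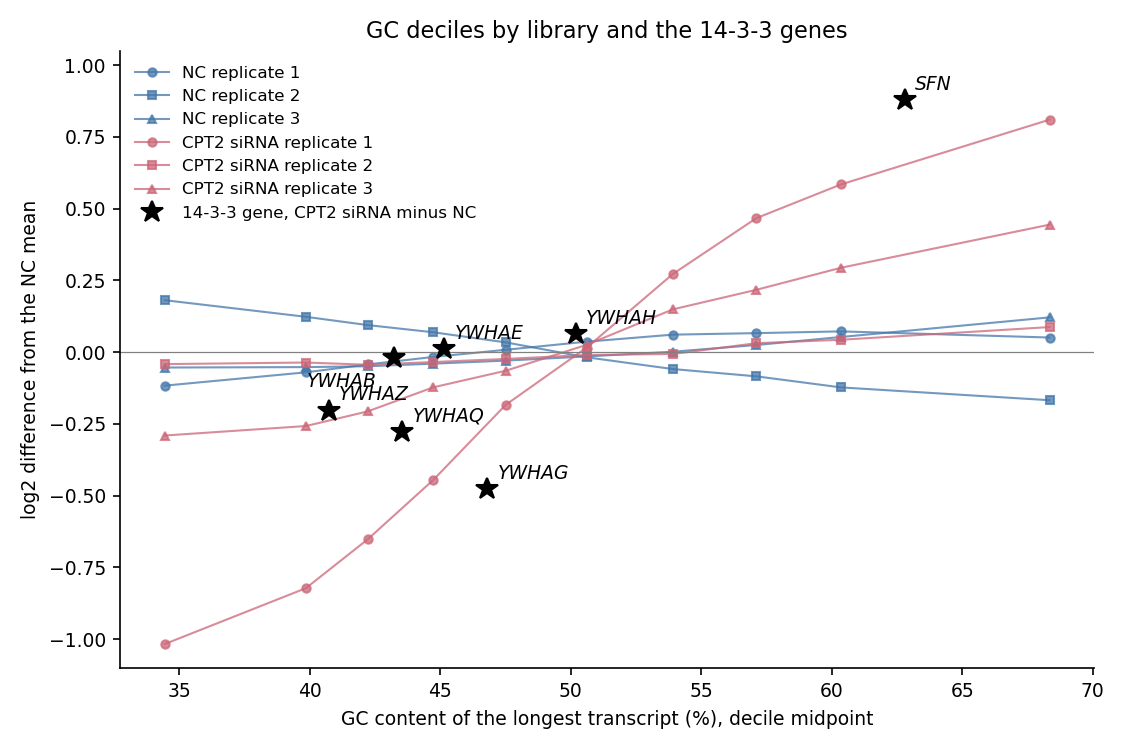
Median log2 difference from the NC mean (vertical axis) in deciles of tested genes ordered by the GC content of their longest transcript (horizontal axis, percent, at the midpoint of each decile), 1 line for each library, with stars for the log2 difference of the 14-3-3 genes, CPT2 siRNA minus NC. CPT2 siRNA replicate 1 runs from -1.02 to 0.81, and the stars of SFN (0.88) and YWHAG (-0.48) lie above and below the medians of their deciles.

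A smooth trend on transcript GC content and length was then removed from each library. SFN then had 147.5, 142.9 and 141.6 CPM in NC replicates 1 to 3 and 181.1, 204.4 and 168.8 CPM in CPT2 siRNA replicates 1 to 3. The groups still did not overlap, as in 9.21% of the 13207 genes with an annotated GC content, but the difference was smaller: the log2 difference was 0.36 with offsets for this trend, in place of 0.88. How much of the SFN difference goes with this trend was not tested beyond these values.

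The correction moved the other members too. YWHAG had 238.5, 265.0 and 263.4 corrected CPM in NC replicates 1 to 3 and 145.6, 234.2 and 216.3 in CPT2 siRNA replicates 1 to 3, so that CPT2 siRNA replicate 1 stayed low. Its log2 difference with the offsets was -0.36 (SE 0.16, edgeR adjusted p = 0.38, where 0.0227% of genes passed), and the groups again did not overlap, as in 10.6% of those genes. YWHAQ had 249.6 to 254.4 corrected CPM in NC, 243.1 and 242.4 in CPT2 siRNA replicates 2 and 3, and 159.6 in CPT2 siRNA replicate 1, so that its groups too were apart after the correction. The offsets gave it -0.23 (SE 0.15, adjusted p = 0.52). For YWHAZ the sign turned, from -0.20 to 0.19 (SE 0.12, edgeR adjusted p = 0.48), and YWHAB went from -0.02 to 0.33 (SE 0.14, edgeR adjusted p = 0.38). The correction uses the longest annotated transcript, 5248 bases for YWHAZ and 5867 for YWHAB. Whether the cells mainly make these transcripts was not tested. CPT2 siRNA replicate 1, the lowest library for both of these genes as counted, was the highest after the correction, at 464.7 CPM for YWHAZ and 338.9 CPM for YWHAB.

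**Figure D4:**
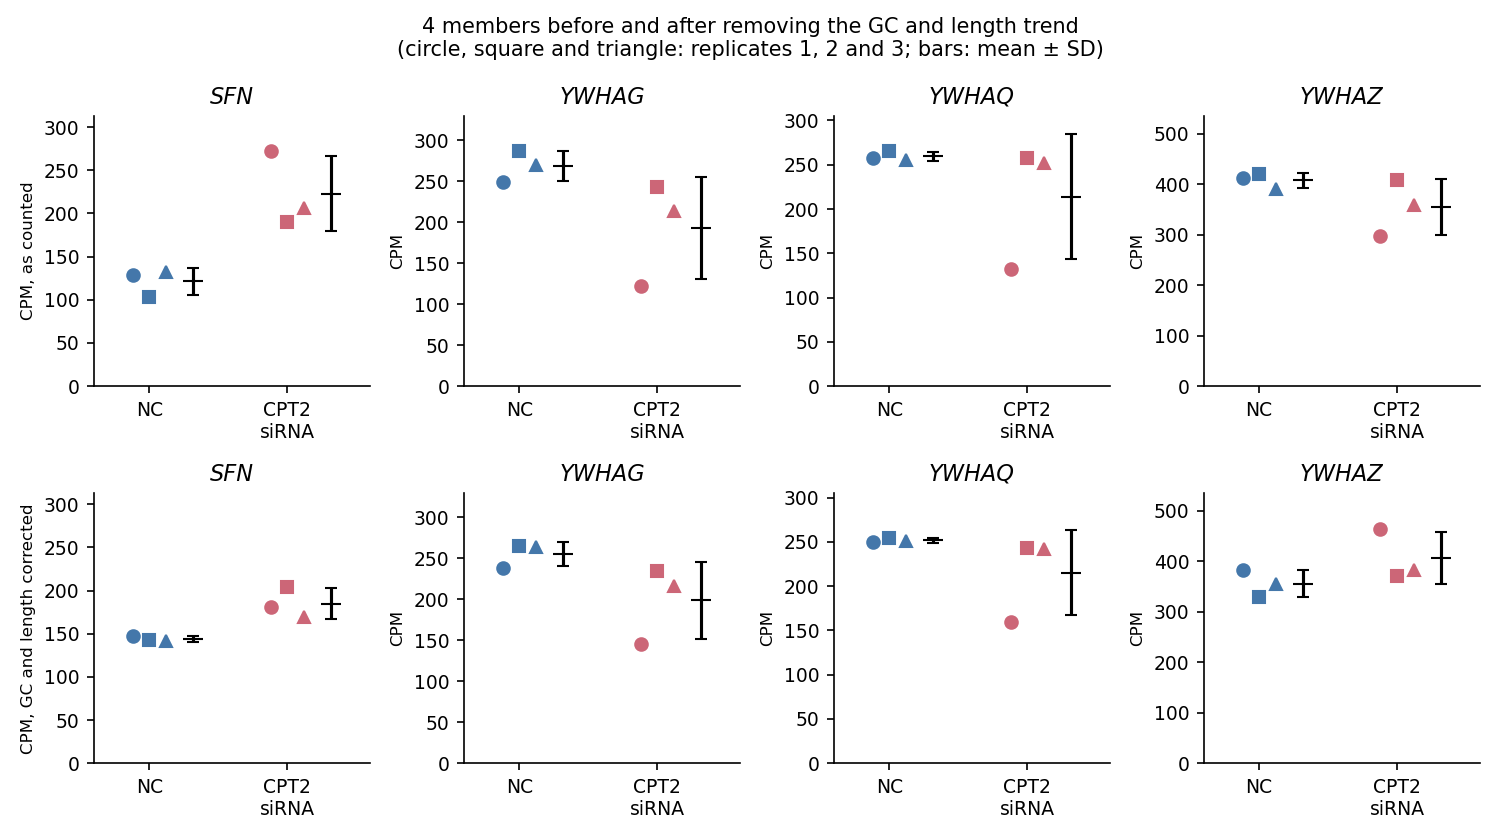
CPM of SFN, YWHAG, YWHAQ and YWHAZ as counted (upper row) and after the GC and length trend of each library was removed (lower row), by group, with symbols for replicate numbers and bars for mean ± SD (n = 3). SFN goes from 190.2 to 271.8 CPM after CPT2 siRNA as counted to 168.8 to 204.4 corrected CPM, above NC in both rows, while YWHAZ moves from below to above NC in its mean.

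The genes whose pattern over the 6 libraries was nearest to that of SFN were ALYREF, PGLS, REEP6, GPX4 and RCN3. Nearness was the root mean square difference of centred log2 CPM among 9532 genes with a mean of at least 10 CPM, and it was 0.06 for ALYREF, an mRNA export adaptor, 0.08 for PGLS, an enzyme of the pentose phosphate pathway, and 0.08 for RCN3. Transcripts of all 5 had 57.5% (ALYREF) to 66.8% (REEP6) GC, and how many of the 9532 genes are as GC-rich was not counted. Their log2 differences lay between 0.77 and 0.83. They were picked for likeness to SFN over the same 6 libraries, so nothing is read from these differences. GPX4, the glutathione peroxidase that reduces lipid peroxides, had 165.4, 121.0 and 163.2 CPM in NC replicates 1 to 3 and 349.7, 209.2 and 240.3 CPM in CPT2 siRNA replicates 1 to 3. Like SFN it was lowest in NC replicate 2 and highest in CPT2 siRNA replicate 1, a likeness that follows from how it was picked.

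Of the 3 tested genes on each side of SFN on chromosome 1, NUDC, 35.8 kb away, had the largest log2 difference, 0.77 (SE 0.23, edgeR adjusted p = 0.34). NUDC codes for a dynein-associated protein of cell division. The closest neighbours, ZDHHC18 at 5.54 kb and GPN2 at 11.7 kb, had 0.24 (SE 0.18) and 0.26 (SE 0.19), and GPATCH3 had 0.43 (SE 0.20). The offsets gave 0.44 for NUDC, 0.04 for ZDHHC18, 0.33 for GPN2 and 0.09 for GPATCH3. PIGV and ARID1A, further to the left, had -0.11 (SE 0.18) and -0.34 (SE 0.17). None of these 6 genes was called by edgeR (adjusted p from 0.34 to 0.72), against 0.0131% of all tested genes.

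The known regulators of SFN did not pass the test either, which 0.0131% of all tested genes passed. TP63, a transcription factor of epithelial genes, reached at most 8 counts in a library and was not tested, and TP73, a related factor, had a log2 difference of -0.11 (SE 0.30). TRIM25, a ubiquitin ligase that marks 14-3-3 sigma for degradation, had 134.4 ± 7.89 CPM in NC and 105.1 ± 2.37 CPM after CPT2 siRNA, lower in 3 of 3 libraries (log2 difference -0.36, SE 0.13, edgeR adjusted p = 0.34). BRCA1 (-0.41), a DNA repair protein, and DNMT3B (-0.34), a DNA methyltransferase, were also without overlap, as are 12.2% of genes in that direction. The offsets gave -0.03 for BRCA1, -0.40 for DNMT3B and -0.27 for TRIM25. DNMT1 (-0.22), COP1 (-0.20), UHRF1 (-0.13) and DNMT3A (-0.07) overlapped between the groups. Of the 9 tested regulators 8 had a negative difference, with a median of -0.20, against 0.01 over all genes.

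The G2/M machinery on which sigma acts showed no common direction. Of 20 genes 0 were called by edgeR or DESeq2, which called 2 of 15302 and 17 of 14404 genes. By edgeR, 2 of the 20 had an unadjusted p under 0.05 (10%, against 14.5% of all genes). The median log2 difference of the 20 was 0.03 (11 higher, 9 lower). PKMYT1, an inhibitory kinase of CDK1, had 55.6 ± 7.04 CPM in NC and 87.7 ± 25.4 CPM after CPT2 siRNA (0.66, SE 0.23, and 0.10 with the offsets). PLK1, a mitotic kinase, had 0.31 (SE 0.13) and AURKB 0.40 (SE 0.21), and the offsets gave 0.15 and 0.03. CDK1 had -0.35 (SE 0.24, and -0.11 without CPT2 siRNA replicate 1), CCNB1, its cyclin, -0.03 (SE 0.17) and CDC25C, the phosphatase that 14-3-3 proteins hold in the cytoplasm, 0.11 (SE 0.17). CDKN1A, the CDK inhibitor p21, had 29.3 ± 2.20 CPM in NC and 29.7 ± 4.71 CPM after CPT2 siRNA (0.02, SE 0.18, and -0.30 with the offsets). The edgeR adjusted p of these 7 genes were between 0.34 and 0.96.

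Among 48 genes of 14-3-3 clients, 0 were called by edgeR or DESeq2, which called 2 of 15302 and 17 of 14404 genes. By edgeR, 11 of the 48 had an unadjusted p under 0.05 (22.9%, against 14.5% of all genes). Of these 4 were higher and 7 lower, where 9.18% and 5.29% of all genes were so. The median log2 difference of the 48 was -0.18, and -0.09 with the offsets. SSH1, a cofilin phosphatase, had 48.03 ± 2.72 CPM in NC and 34.1 ± 2.27 CPM after CPT2 siRNA (-0.49, SE 0.15), and AKT1S1, an mTORC1 subunit also called PRAS40, had 73.2 ± 11.1 and 125.1 ± 49.6 CPM (0.77, SE 0.26). PFKFB2, an enzyme that sets fructose 2,6-bisphosphate, had -0.57 (SE 0.20) and RAPGEF2, a Rap exchange factor, -0.96 (SE 0.36). All 4 had an edgeR adjusted p of 0.34. The offsets gave -0.27 for SSH1, 0.45 for AKT1S1, -0.22 for PFKFB2 and -0.75 for RAPGEF2, and AKT1S1 had 0.39 without CPT2 siRNA replicate 1. Groups were apart in 18 of the 48 genes, with 6 higher and 12 lower, against 12.2% of all genes in each direction.

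The kinases that write 14-3-3 sites and the epithelial barrier genes held no member called by edgeR or DESeq2, where edgeR called 0.0131% of all genes. The 24 kinase genes had a median log2 difference of -0.03. RPS6KA3 (-0.60), LATS1 (-0.69) and LATS2 (-0.77), of which the last 2 phosphorylate YAP1, did not pass (edgeR adjusted p = 0.34 each), and had -0.35, -0.38 and -0.43 without CPT2 siRNA replicate 1. The offsets gave -0.21 for RPS6KA3, -0.30 for LATS1 and -0.71 for LATS2. Of 22 barrier genes 18 were tested, with a median of 0.14, and -0.05 with the offsets, and 5.56% of them had an unadjusted p under 0.05, against 14.5% of all genes. ITGA6, an integrin of hemidesmosomes, had -0.71 (SE 0.29), CLDN4, a tight junction claudin, 0.49 (SE 0.23), S100A14 0.84 (SE 0.40) and PKP3, a desmosomal plakophilin, 0.48 (SE 0.23). S100A14 was low, at 0.63 ± 0.19 CPM in NC and 1.13 ± 0.30 CPM after CPT2 siRNA, with at most 43 counts in a library. The offsets turned the sign of PKP3 (-0.05) and gave -0.40 for ITGA6, 0.28 for CLDN4 and 0.52 for S100A14, and without CPT2 siRNA replicate 1 PKP3 had 0.29, CLDN4 0.26 and ITGA6 -0.47. The 6 tested colorectal markers had a median of 0.46, which was 0.26 with the offsets and 0.34 without CPT2 siRNA replicate 1. These and the 7 tested markers of other cell types held 1 member each at an unadjusted p under 0.05, KRT18 (0.49, SE 0.20) and CD68 (0.48, SE 0.16), or 16.7% and 14.3% of the lists, against 14.5% of all genes. With the offsets these 2 genes had 0.20 each. The summed level of the colorectal markers was 1552 to 1811 CPM in NC and 1717 to 2659 CPM after CPT2 siRNA, nearly all of it KRT8 and KRT18, and that of the other markers was 169.2 to 171.8 and 175.9 to 212.03 CPM. Their part in the SFN difference was not tested.

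**Figure D5:**
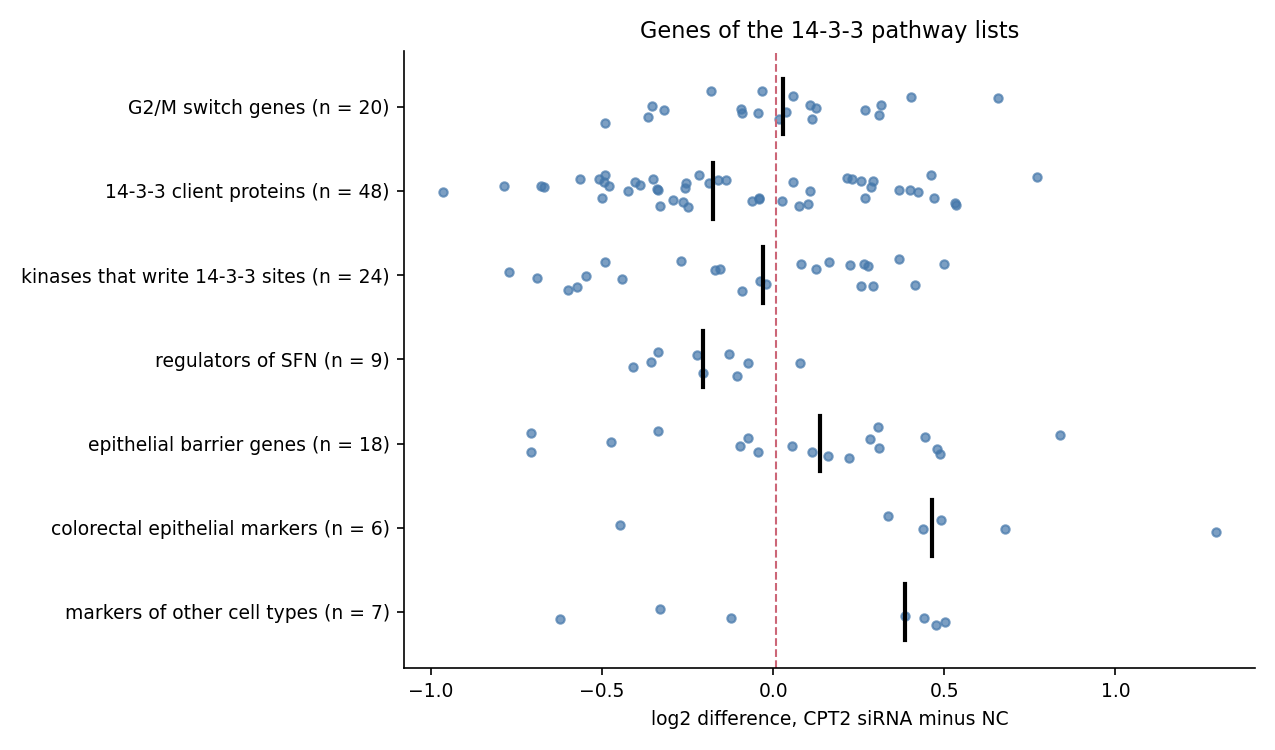
Log2 difference, CPT2 siRNA minus NC (horizontal axis), of each tested gene in 7 lists (rows, with the number tested), 1 point for each gene and a black bar for the list median; the dashed line is the median of all tested genes (0.01). No gene shown was called by edgeR, against 0.0131% of all tested genes. The medians run from -0.20 (regulators of SFN) to 0.46 (colorectal epithelial markers).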

How the data were processed

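Poly(A) RNA-seq was analysed from cells labelled HCT116, 3 NC and 3 CPT2 siRNA libraries. The deposited table gives 1 raw read count and 1 FPKM for each gene and library, per the file headers, which do not name gene models or library sizes. A p-value and a log2 fold change from DESeq2, run by the authors on NC and Si, stand beside them in the deposited table, per the file headers. The submitters' processing notes name, without versions or roles, the build GRCh38, the aligners HISAT2, Bowtie2 and TopHat2, and StringTie, edgeR and DESeq2. How strand and reads with several matches were treated is not stated there.

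After 17 stray lines were left out, 24154 genes remained: 19974 with an Ensembl ID, all matched to GENCODE 29, and 4180 loci named by the authors, which stayed in library sizes and tests (5.32% to 7.18% of counts). The count test was edgeR 4.0.16 in R 4.3.3 (filterByExpr, 15302 genes, TMM, quasi-likelihood F-test with robust dispersion, Benjamini-Hochberg threshold 0.05). For the GC and length trend, each gene's log2 CPM was first centred on its mean over the libraries. A loess (span 0.3) of these deviations on the longest transcript's GC content and log2 length was fitted in each library. The fitted values were centred over the libraries, so only differences between libraries in this trend were removed. DESeq2 1.42.0, limma 3.58.1 on log2(FPKM + 1) or log2(FPKM + 0.1), other scalings and filters, the replicate number as a block and leaving out each library were alternatives. The tests were checked on simulated counts drawn without a GC or length trend, an outlying library or a block, so the check does not cover these.

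The members and gene lists were chosen with earlier results of these data known. Named genes were the members, CPT2, the 5 genes nearest to SFN in pattern, 3 neighbours on each side, up to 4 genes of each list with the smallest p, all tested regulators and colorectal markers, and CDKN1A, CDK1, CCNB1 and CDC25C. Some genes and 1 gene list chosen by this rule are not reported here. Untested list members, other markers and, in the closing section, YAP1 were named after their values were seen. Limits of 0 counts (3 counts of a library) cover counting error only, and SDs and SEs rest on the spread between these libraries.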

Additional observations from a re-analysis of the deposited data

How the results depend on the processing

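The count of called genes was 2 and rested on the settings: DESeq2 called 17, the stricter filter 1, log2(FPKM + 1) and log2(FPKM + 0.1) 0 each, an adjusted p of 0.01 1, and GC and length offsets without CPT2 siRNA replicate 1, chosen after seeing the data, 4. Leaving out 1 library gave 1 to 4. With the replicate number as a block it was 633 of 15302 genes, and 656 of 13207 with the offsets as well. Of 151 tested list members, 7 and 8 were then called in place of 0. With the block alone these held, of the genes named here, PKMYT1 (edgeR adjusted p = 0.0499), AKT1S1 (0.0482), YAP1 (0.048) and RAPGEF2 (0.0479). The pairing is not given by the labels. Deviations of same-numbered libraries correlated at 0.25, 0.36 and 0.01. NC replicates 1 and 2 correlated best with the CPT2 siRNA library of their own number, and NC replicate 3 with CPT2 siRNA replicate 1 (0.09). Whether the numbers pair the libraries cannot be told from these values. With the block, the 6 YWHA genes were not called (YWHAG -0.53, edgeR adjusted p = 0.0607). With block and offsets YWHAB was called in the opposite direction (0.32, edgeR adjusted p = 0.0491), where 656 of 13207 genes were called. Its adjusted p was 0.0491 to 0.964 over the tests of its 17 alternatives. This call was the only one in 102 alternatives of these 6 genes.

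The SFN log2 difference was 0.36 with the offsets, 0.35 with block and offsets and 0.38 with the offsets without CPT2 siRNA replicate 1; its other 14 alternatives stayed within the replicate SD of 0.88, and leaving out 1 library gave 0.70 to 0.98. Signs turned in 23 of the 102. For YWHAB they did with the offsets (0.33), also without CPT2 siRNA replicate 1 (0.21), and on leaving out 1 library (-0.076 to 0.019). For YWHAZ the offsets gave 0.19, 0.18 with the block and 0.081 without CPT2 siRNA replicate 1. For YWHAE library size alone gave -0.12, no filter -0.0018, FPKM -0.048 with either pseudocount, and leaving out 1 library -0.031 to 0.059. For YWHAH library size alone gave -0.062, the offsets -0.068, block and offsets -0.085, FPKM -0.076 and -0.079, and leaving out 1 library -0.024 to 0.19. Library size alone moved the median of all genes to -0.13, below which YWHAE and YWHAH did not lie. Causes were not tested. YWHAG and YWHAQ stayed negative in all 17 alternatives. The SFN share difference was 5.37 to 9.98 percentage points on leaving out 1 library and 10.1 by counts per kilobase. Depth was not varied.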
